A study of Homo sapiens with 10 samples.

Results

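The CHD genes encode chromatin remodellers, and all 9 members of the human family, CHD1 to CHD9, were found by symbol among the 31017 genes of the RNA-seq count table. Each gene's start in the count table also lay in a fragment used as bait for promoter capture, so 9 of the 21833 baits were assigned to the family. For CHD2 and CHD3 the bait did not hold the start of the canonical transcript, as described with the contacts. Expression was measured by mRNA sequencing and promoter contacts by Promoter Capture Hi-C (PCHi-C), which enriches ligated pairs of HindIII fragments for those holding a promoter. The groups were undifferentiated H9 (WA09) embryonic stem cells (ESCs), a single human line grown in PluriPro medium and matrix with no further treatment, and neuroectodermal cells (NECs) derived from the same line and harvested on day 7. Each assay had 2 biological replicates per cell type, and no allele or transgene set the groups apart.

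CHD proteins use ATP to slide, space or evict nucleosomes, and they pair an SNF2-type motor with chromodomains that bind histone tails. CHD1 and CHD2 act at transcribed genes. CHD3, CHD4 and CHD5 are alternative motor subunits of the NuRD complex, which joins remodelling to histone deacetylation. CHD6 to CHD9 share another domain layout. Mutations of CHD7 cause CHARGE syndrome, in which neural crest derivatives are malformed, and mutations of CHD2 and CHD8 are known from epilepsy and autism.

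The sequences just before an annotated start of the 6 family members whose mRNA level passed the test are shown here. These genes have further annotated starts, and which start the cells used was not tested. Each sequence is 200 bases of GRCh37 read 5′ to 3′ along the gene's strand and ending at the base before the start. The start was the outermost annotated start within 500 bases upstream of the canonical transcript's start. Capitals mark matches, on either strand, to the GC box GGGCGG, the CCAAT box CCAAT, the TATA box TATAAA, the ETS core CCGGAAG, the NRF1 half-site TGCGCA or the HindIII site AAGCTT. The first 4 precede genes that were higher in NECs, and the last pair precede genes that were lower.
CHD2 (chr15:93443219-93443418, plus strand): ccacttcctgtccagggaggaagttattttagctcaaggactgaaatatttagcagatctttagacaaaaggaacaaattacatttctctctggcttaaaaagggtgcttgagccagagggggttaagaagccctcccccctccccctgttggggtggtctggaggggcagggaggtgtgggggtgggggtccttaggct
CHD3 (chr17:7791907-7792106, plus strand): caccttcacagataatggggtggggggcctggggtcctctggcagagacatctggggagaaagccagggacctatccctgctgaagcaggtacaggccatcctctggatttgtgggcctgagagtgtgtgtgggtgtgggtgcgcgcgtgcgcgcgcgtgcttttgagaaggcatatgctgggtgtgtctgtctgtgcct
CHD6 (chr20:40247134-40247333, minus strand): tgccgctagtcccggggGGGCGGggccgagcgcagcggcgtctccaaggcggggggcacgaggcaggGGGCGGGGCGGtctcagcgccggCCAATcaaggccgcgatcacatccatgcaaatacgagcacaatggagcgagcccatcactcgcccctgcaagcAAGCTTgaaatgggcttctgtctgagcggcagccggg
CHD9 (chr16:53088703-53088902, plus strand): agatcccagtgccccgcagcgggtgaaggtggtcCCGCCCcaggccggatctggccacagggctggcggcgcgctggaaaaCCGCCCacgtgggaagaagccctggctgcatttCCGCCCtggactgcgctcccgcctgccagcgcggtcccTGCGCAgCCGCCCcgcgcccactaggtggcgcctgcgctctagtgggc
CHD5 (chr1:6240382-6240581, minus strand): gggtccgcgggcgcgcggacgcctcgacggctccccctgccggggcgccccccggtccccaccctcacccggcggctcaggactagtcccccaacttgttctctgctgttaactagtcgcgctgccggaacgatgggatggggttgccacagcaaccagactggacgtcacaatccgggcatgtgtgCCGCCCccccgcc
CHD8 (chr14:21924286-21924485, minus strand): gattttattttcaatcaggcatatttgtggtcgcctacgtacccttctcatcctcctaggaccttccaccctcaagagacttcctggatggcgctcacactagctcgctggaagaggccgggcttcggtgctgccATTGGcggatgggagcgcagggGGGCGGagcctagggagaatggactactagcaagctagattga

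The windows before CHD2 and CHD3 had 52.0% and 60.5% G and C, and that of CHD9 had 73.5%, against a median of 62.0% over the same window of 19874 protein-coding genes (quartiles 52.0% and 70.5%). A GC box was found before 7 of the 9 members, the exceptions being CHD2 and CHD3, and before 50.3% of all protein-coding genes. The CCAAT box was matched before CHD1, CHD6 and CHD8 and before 30.0% of all genes. The NRF1 half-site was matched before CHD1 and CHD9 and before 7.07% of all genes. The windows of CHD2 and CHD3 held none of these letters, which says nothing of the factors. No member had the TATA box, which 7.46% of all genes had, or the ETS core, which 8.04% had. The HindIII site, held by 3.35% of the windows, was matched in that of CHD6 alone among the members. It is the border of the CHD6 bait, which ends 32 bases upstream of the annotated gene start, so 32 of the 200 bases shown lie in the bait. The sequences shown for CHD2 and CHD3 lie outside their baits, as described with the contacts.

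The labels of the cells were checked against marker genes. All 10 pluripotency markers were lower and all 10 neuroectoderm markers higher in NECs, and POU5F1, the pluripotency factor OCT4, fell from 1482 and 1438 CPM (counts scaled to the library size) in the ESC libraries to 31.03 and 111 CPM in the NEC libraries. The summed level of the pluripotency markers was 6592 to 7107 CPM in ESCs and 1084 to 1670 CPM in NECs. Markers of other cell types also moved, where 31.5% of all genes tested were called higher and 29.7% lower. The 10 neural crest genes summed to 261 and 127 CPM in the NEC libraries and 137 to 149 CPM in ESCs, with 6 called higher and 1 lower. The lower gene, ETS1, made up most of the ESC sum, at 106.5 and 105.4 CPM in ESCs and 28.5 and 4.86 CPM in NECs. The 10 neuron genes summed to 789 to 817 CPM in NECs and 312 to 325 CPM in ESCs, with 7 of the 9 tested called higher. MAP2 made up most of this rise, at 39.3 and 11.4 CPM in the ESC libraries and 414.5 and 461.4 CPM in the NEC libraries. TUBB3 and SYT1 were not called. Of the 9 mesendoderm genes tested, 7 were lower and 1 higher in NECs. The sum of all 10 listed was 48.3 and 115 CPM in the ESC libraries and 49.7 and 30.97 CPM in those of NECs. The higher gene, CXCR4, made up most of the NEC sum, at 41.98 and 25.3 CPM in NECs and 9.01 and 6.96 CPM in ESCs. NEUROD1, TFAP2B and HES5 were at 0 in both ESC libraries. The NEC replicates differed over most of the neural crest list. SOX10, a neural crest factor, was at 18.4 and 0.689 CPM, TFAP2B at 15.9 and 1.46 CPM and PAX3 at 66.3 and 17.9 CPM. SNAI2 was closer, at 24.5 and 19.7 CPM, and only NGFR was not lower in replicate 2, at 78.4 and 78.9 CPM. The part of such cells in the results on the CHD genes was not tested. The libraries held 19234087 to 25356382 counts. ESC libraries shared a sequencing lane and NEC libraries shared a different one, so lane and cell type cannot be told apart. In these bulk samples more cells with a transcript and more of it per cell cannot be told apart.

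Of the 9 CHD genes, CHD2, CHD3, CHD6 and CHD9 were higher in NECs and CHD5 and CHD8 lower. CHD1, CHD4 and CHD7 did not pass the test. The 4 higher members stand beside 31.5% of the 17564 genes tested that were called higher, and the 2 lower members beside 29.7% called lower, at an adjusted p under 0.05 (edgeR's quasi-likelihood test, Benjamini-Hochberg adjustment over all genes tested). No member also had an absolute log2 fold change above 1.5, which 11.4% of tested genes exceeded upward and 9.68% downward. The median log2 fold change of the members, NEC minus ESC, was 0.17 beside 0.01 for all genes, and the median of its absolute size was 0.42 beside 0.61. Together the 9 genes took 0.148% and 0.149% of the counts in the ESC libraries and 0.167% and 0.181% in the NEC libraries.

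**Figure D1:**
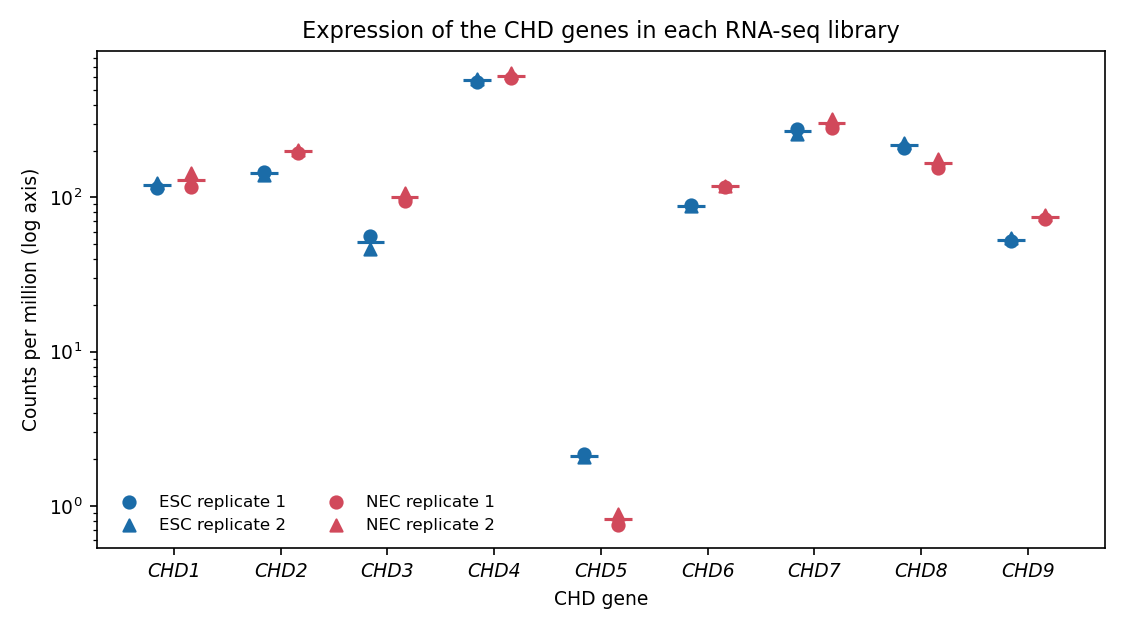
CPM of each CHD gene on a log axis, 1 point per library (circles replicate 1, triangles replicate 2, blue ESCs, red NECs), with a line at the mean of each pair. CHD4 lies highest and CHD5 lowest in all 4 libraries, and the NEC points of CHD3 lie clearly above those of ESCs.

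CHD3, a NuRD motor subunit, had the largest rise of the family. Its level was 56.4 and 46.3 CPM in the ESC libraries and 95.0 and 106 CPM in the NEC libraries. The mean rose from 51.4 ± 7.18 to 101 ± 7.89 CPM (SD, n = 2 each). The groups did not overlap, and the log2 fold change was 0.97 with an SE of 0.12 (edgeR, adjusted p = 0.000898). AC025335.1 lies just past the end of CHD3 on the opposite strand, and its 20 to 101 counts are small beside the 1065 to 2619 counts of CHD3.

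CHD5 is known for high expression in neurons, and it was the lowest member in all 4 libraries. It had 41 and 51 counts in the ESC libraries and 16 and 22 in those of NECs, or 2.17 and 2.06 CPM against 0.749 and 0.892 CPM. The groups did not overlap, and its log2 fold change was -1.36 with an SE of 0.30 (edgeR, adjusted p = 0.00837). These few counts make it the least precisely measured member, with the largest SE of the 9. DESeq2's test gave a log2 fold change of -1.39 with a larger SE of 0.61 (DESeq2, adjusted p = 0.043). The neighbouring genes gave far more reads, with 323 to 582 CPM for RPL22, a ribosomal protein gene, and 8.39 to 14.0 CPM for KCNAB2, a potassium channel subunit gene.

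The remaining NuRD motor gene, CHD4, was the most abundant member. Its level was 559 and 589 CPM in ESCs and 593 and 638 CPM in NECs. Both NEC libraries lay above both ESC libraries, as they did for 42.8% of tested genes, but the log2 fold change of 0.10 (SE 0.10) did not pass the test (edgeR, adjusted p = 0.434). The small RNA host gene SCARNA11 overlaps CHD4 on the opposite strand, and the counts took no account of strand, so reads of the pair cannot be told apart where they overlap. SCARNA11 held 793 to 1231 counts beside 10545 to 15730 for CHD4.

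CHD2 passed the test and its close relative CHD1 did not. CHD2 stood at 147 and 140 CPM in ESCs and at 194 and 204 CPM in NECs, without overlap. The mean rose from 143 ± 5.14 to 199 ± 6.88 CPM (SD, n = 2 each), a log2 fold change of 0.47 with an SE of 0.09 (edgeR, adjusted p = 0.00362). The range for CHD1 was 115 to 125 CPM in ESCs and 117 to 143 CPM in NECs, so that the groups overlapped. Its log2 fold change of 0.12 had an SE of 0.12 (edgeR, adjusted p = 0.425) and became -0.04 without NEC replicate 2. The difference between the responses of these genes was not tested.

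In the CHD6 to CHD9 group, 2 members rose, 1 fell and 1 did not pass the test. CHD6 had 89.4 and 87.4 CPM in ESCs and 117 and 119 CPM in NECs. The pairs were close and did not overlap, and the log2 fold change was 0.42 with an SE of 0.08 (edgeR, adjusted p = 0.00498). CHD9 had 52.1 and 54.4 CPM in ESCs and 72.0 and 77.0 CPM in NECs. The groups did not overlap, with a log2 fold change of 0.48 and an SE of 0.09 (edgeR, adjusted p = 0.0040).

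CHD8, which binds β-catenin and CTCF, was the only abundant member that fell. Its level was 210 and 226 CPM in ESCs and 154 and 178 CPM in NECs. The mean fell from 218 ± 11.2 to 166 ± 16.8 CPM (SD, n = 2 each), a log2 fold change of -0.39 with an SE of 0.10 (edgeR, adjusted p = 0.0167). CHD7, the gene of CHARGE syndrome, had 276 and 259 CPM in ESCs and 280 and 323 CPM in NECs. Both NEC libraries were above both ESC libraries, yet the log2 fold change of 0.17 (SE 0.11) did not pass the test (edgeR, adjusted p = 0.20). Without NEC replicate 1 it was 0.28 and passed (edgeR, adjusted p = 0.0352). Without ESC replicate 2, CHD2, CHD6 and CHD8 lost their calls, with log2 fold changes of 0.43, 0.39 and -0.34 (edgeR, adjusted p = 0.0523, 0.0556 and 0.114), which left 2 members higher and 1 lower.

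**Figure D2:**
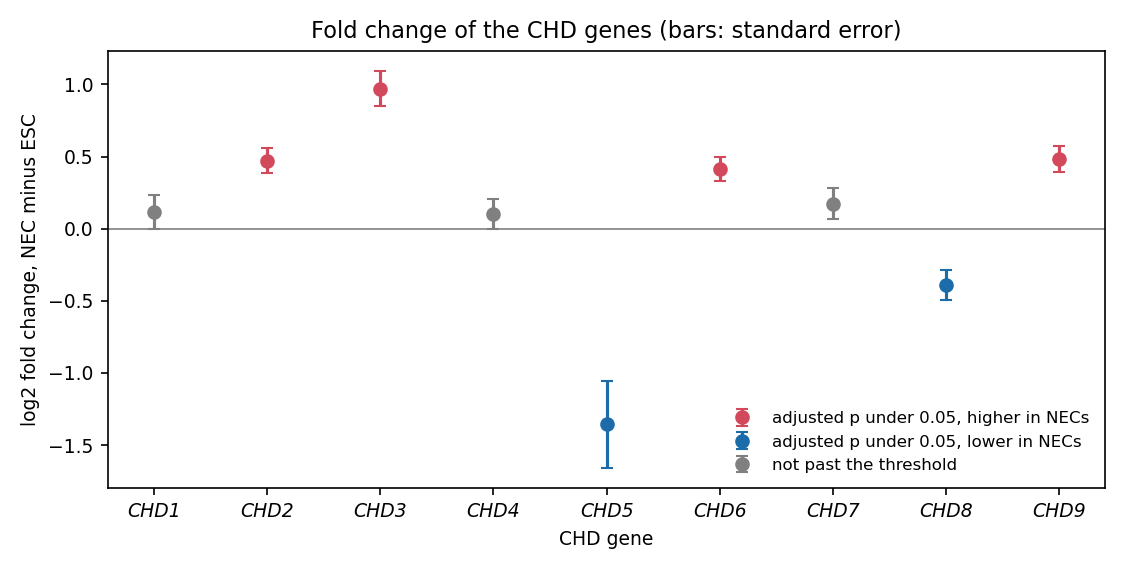
Log2 fold change of each CHD gene, NEC minus ESC, with the standard error as bars. Red points (CHD2, CHD3, CHD6, CHD9) were called higher in NECs, blue points (CHD5, CHD8) lower, and the 3 grey points did not pass an adjusted p of 0.05.

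To compare levels between genes, CPM were divided by the length of the canonical transcript in kb. On this per-length scale CHD4 led in both cell types, at 88.4 ± 3.34 CPM per kb in ESCs and 94.8 ± 4.90 in NECs (SD, n = 2). In ESCs the order continued with CHD8 at 25.8, CHD7 at 23.1, CHD2 at 15.3 and CHD1 at 14.7 CPM per kb, where the last pair did not differ beyond their spread. CHD6 at 8.25, CHD3 at 6.95, CHD9 at 4.61 and CHD5 at 0.215 CPM per kb followed. In NECs CHD7 followed CHD4 at 26 CPM per kb, before CHD2 at 21.3 and CHD8 at 19.6, and CHD1 at 15.96 and CHD3 at 13.6. CHD2 and CHD8 overlapped, as did CHD1 and CHD3. CHD6 at 11.0, CHD9 at 6.45 and CHD5 at 0.0833 CPM per kb closed the order. CHD8 thus ranked 2 in ESCs and 4 in NECs, while CHD3 passed CHD6. With the union of all annotated exons as the length, CHD8 stood below CHD7 and CHD1 in ESCs, although it overlapped CHD1, so these places depend on the gene model.

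The profiles over the 4 libraries most like that of CHD3 belonged to DHX40, MVK and TMEM86A, by Euclidean distance of centred log2 CPM among 14577 protein-coding genes. The distances were 0.0428, 0.0715 and 0.0726. For CHD5 the nearest genes were DDT, HSH2D and CNKSR1, at 0.0193, 0.0435 and 0.0504. DDT had a log2 fold change of -1.27 and DHX40 one of 0.96. Their closeness to the values of CHD5 and CHD3 follows from the choice by profile over the same libraries.

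Genes that work with the CHD proteins were read from the same fit. Of 12 other NuRD subunit genes, 3 were higher and 3 lower in NECs, beside 31.5% higher and 29.7% lower over all genes tested, and their median log2 fold change was -0.12. RBBP4 and RBBP7, the histone chaperone subunits, rose by log2 fold changes of 0.33 and 0.46, and GATAD2B rose by 0.69. The paralog GATAD2A changed by -0.48, MTA3 by -0.70 and CDK2AP1 by -0.94. The deacetylase genes HDAC1 and HDAC2 did not pass the test, at 0.14 and -0.19.

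**Figure D3:**
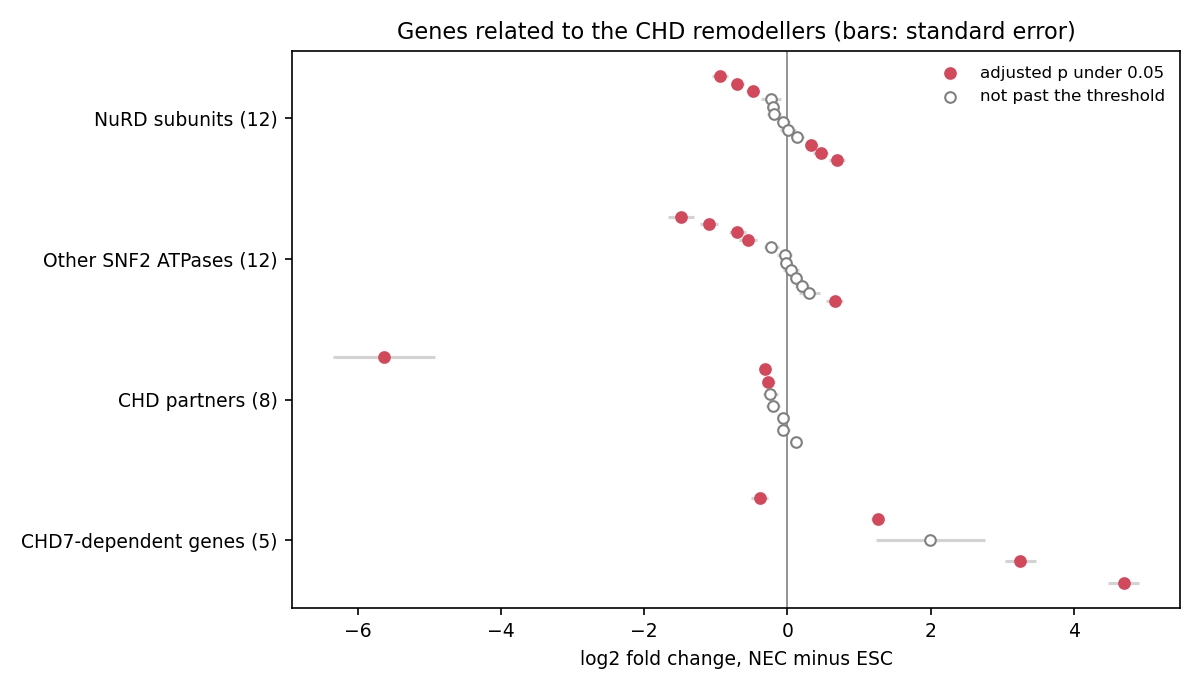
Log2 fold change, NEC minus ESC, of the genes in 4 related lists, with the standard error as bars and the number of tested genes in brackets. Filled points passed an adjusted p of 0.05. FAM124B lies far to the left and SOX9 and SNAI2 to the right, while most NuRD and SNF2 genes lie near 0.

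Among 12 remodeller motor genes outside the family, 1 rose and 4 fell, beside the same 31.5% and 29.7% of all genes, with a median log2 fold change of -0.03. SMARCA1, an ISWI motor, rose by 0.66. SMARCA2, a BAF motor, changed by -1.49, HELLS by -1.10, INO80 by -0.70 and SMARCAD1 by -0.55. The BAF motor SMARCA4 stood at 0.21 and did not pass. The closest relative by name, CHD1L, is not a member and had 0.11, also not past the threshold.

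Of 8 partner genes, 3 were lower and none was higher, where 29.7% and 31.5% of all genes were, and the median log2 fold change was -0.22. WDR5, of the H3K4 methyltransferase complexes, changed by -0.32 and CTCF, the insulator factor that CHD8 binds, by -0.27. FAM124B had 30 and 28 counts in ESCs and 0 and 1 count in NECs, too few to size its loss. ADNP, which joins CHD4 in a complex with HP1, stood at 0.12 and did not pass. The list of 5 genes described as needing CHD7 had a median of 1.99, with 3 higher and 1 lower beside the same shares of all genes. SNAI2 rose by 4.69 and SOX9 by 3.25, both neural crest regulators, and SOX11 rose by 1.26. SOX4 changed by -0.39, and TWIST1, at 1.99, did not pass (edgeR, adjusted p = 0.0586). SNAI2 and TWIST1 are also in the neural crest list described above.

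Promoter contacts were counted as promoter-interacting regions (PIRs), the HindIII fragments called with a bait at a CHiCAGO score of 12 or more. Summed over the 9 baits there were 76 PIRs in the merged list of ESCs and 99 in that of NECs. The merged lists were called by the authors on both replicates together. In single replicates the sums were 54 and 48 in ESCs and 77 and 68 in NECs, while the lists as a whole held 95283 and 86429 calls in the ESC replicates and 100305 and 81168 in those of NECs. The median number over the members was 5 in ESCs and 10 in NECs in the merged lists, beside 4 for both cell types among protein-coding baits with a PIR. PIR numbers were described and not tested, and an exact permutation test of 2 replicates against 2 could not have reached p under 0.05.

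**Figure D4:**
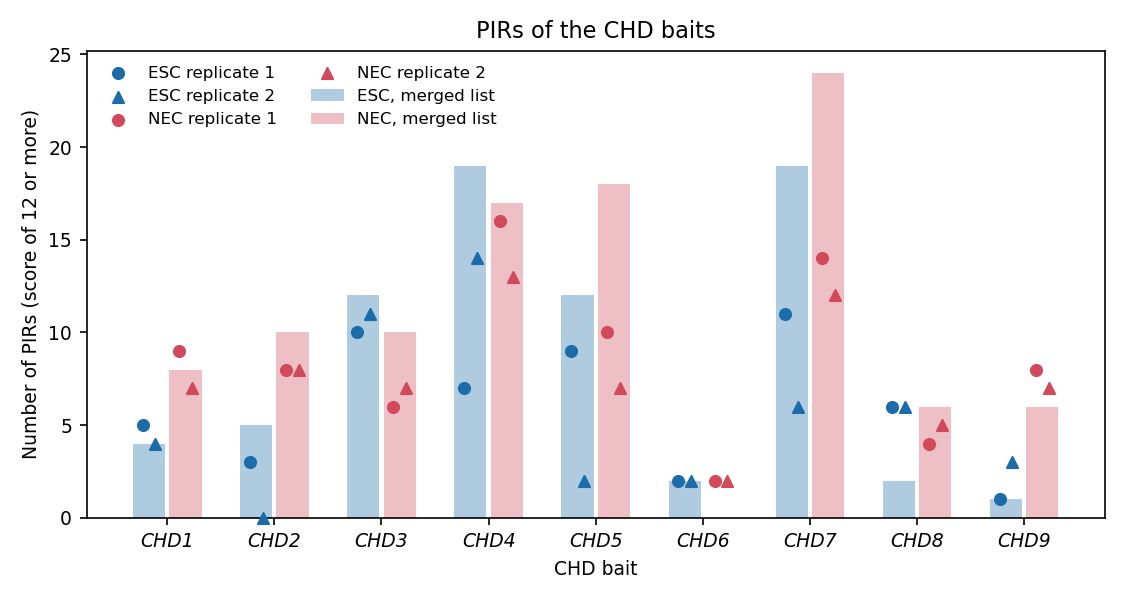
Number of PIRs of each CHD bait, as bars for the merged list and points for the single replicates (circles replicate 1, triangles replicate 2, blue ESCs, red NECs). Both NEC points lie above both ESC points for CHD1, CHD2, CHD7 and CHD9 and below them for CHD3 and CHD8. The CHD2 bait holds none of the annotated CHD2 transcript starts of the reference.

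At 4 baits, those of CHD1, CHD2, CHD7 and CHD9, both NEC replicates had more PIRs than both ESC replicates, as at 13.2% of the 21768 baits with a PIR in any replicate. CHD3 and CHD8 had fewer in both NEC replicates, as at 12.9% of baits, and the replicates of the other 3 overlapped. At a score of 15 or more, 2 members had more and 0 fewer. The share of all baits at that score is not given here, so this count is not read as a trait of the family. In the replicates CHD2 and CHD9 were higher in both PIR number and expression, CHD8 was lower in both, and CHD3 was higher in expression with fewer PIRs. CHD1 and CHD7 had more PIRs, but their expression did not pass the test. CHD6 was higher and CHD5 lower in expression, while their PIR numbers overlapped. For CHD4 the PIR numbers overlapped and expression did not pass. Whether PIR number and expression go together was not tested. The direction of the CHD3 PIR number turned with the settings. In the merged lists it was 12 in ESCs and 10 in NECs, but 2 and 4 at a score of 15 or more, and 17 and 23 when the bait at chr17:7807078-7810095, which holds 3 other annotated starts of CHD3, was added. That bait alone had 13 and 7 PIRs in the ESC replicates against 14 and 12 in those of NECs. For CHD8 the merged lists gave 2 in ESCs and 6 in NECs, and 26 and 23 with the baits of all its annotated starts.

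The bait assigned to CHD2 showed the highest score of any CHD bait. It holds none of the annotated CHD2 transcript starts of the reference. This bait, at chr15:93422047-93429207, had 3 and 0 PIRs in the ESC replicates and 8 and 8 in those of NECs. The merged lists held 5 and 10. All 5 PIRs of ESCs were among the 10 of NECs. All 5 of ESCs and 8 of those of NECs lay upstream of the bait, from 49.6 to 83.7 kb away, where the gene FAM174B begins. The fragment at chr15:93354332-93361001, 68.0 kb away and outside protein-coding genes, scored 30.7 in merged NECs and 13.2 in merged ESCs, and it was called in both NEC replicates (22.9 and 19.98) and in neither ESC replicate. The fragment beside it, chr15:93361002-93362257, and that holding the start of FAM174B, chr15:93346888-93354331, were called in the same pattern. In the merged NEC list they scored 24.9 and 22.0.

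The CHD2 bait needs a qualification. It holds the gene start of the count table, at position 93425937, but the canonical start at 93443554 is 14347 bases beyond it, and none of the 28 annotated transcript starts of the reference lies in it. The fragment holding the canonical start, chr15:93441724-93445430, was itself a PIR of this bait in merged NECs, with a score of 14.3, and was called in 1 NEC replicate. The CHD3 bait, chr17:7787163-7789924, likewise ends 2183 bases before the canonical start. The other 7 baits held the canonical start.

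CHD9 had 1 and 3 PIRs in the ESC replicates and 8 and 7 in those of NECs, around its bait at chr16:53079931-53091913. The merged lists held 1 and 6 PIRs with none shared. In NECs 4 of them lay upstream at 844.5 to 978 kb, outside protein-coding genes, and 2 lay within CHD9 itself. One of these, chr16:53241403-53249301, which overlaps an exon of CHD9 159 kb downstream of the bait, had the top NEC score of 17.5 and was called in both NEC replicates and neither ESC replicate. The single PIR of merged ESCs lay 634 kb upstream with a score of 12.3, just above the threshold. Among the upstream PIRs of merged NECs, chr16:52106531-52109026 and chr16:52109027-52116892 were also called in ESC replicate 2, at 13.9 and 12.7.

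Among the baits holding the gene starts, that of CHD7 had the most PIRs in the merged NEC list, although CHD4 had more in both single NEC replicates. With the baits of all annotated starts, CHD4 had 59 PIRs in merged ESCs and 44 in merged NECs, against 19 and 24 for CHD7. At the CHD7 bait the ESC replicates had 11 and 6, those of NECs 14 and 12, and the merged lists 19 and 24, of which 10 were shared. That is 52.6% of the ESC and 41.7% of the NEC PIRs. Of the 24 in NECs, 17 lay more than 300 kb downstream, past the end of the gene, up to the introns of CLVS1, as did 10 of the 19 in ESCs. The top PIR of both cell types was the same fragment, 342 kb downstream and outside protein-coding genes, with scores of 17.4 in merged ESCs and 25.6 in merged NECs. One fragment within an intron of CLVS1, 404 kb downstream, was called in all 4 replicates, with scores of 12.2 and 14.0 in ESCs and 16.7 and 12.9 in NECs.

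CHD1 had 5 and 4 PIRs in the ESC replicates and 9 and 7 in those of NECs. Most of these calls lay 1013 to 2143 kb downstream, each in a single replicate and in neither merged list. The merged lists held 4 and 8 PIRs, of which 0 and 2 were called in both replicates of their cell type. The CHD1 bait, chr5:98258843-98266385, also holds the start of the noncoding gene CTD-2007H13.3, which had 2 to 9 counts. The top PIR of both cell types was chr5:98358113-98369372, 101 kb upstream and outside protein-coding genes, with scores of 13.7 in ESCs and 20.6 in NECs. The next fragment, chr5:98369373-98370284, was called in both NEC replicates (13.2 and 12.9) and in neither ESC replicate.

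The 2 members with fewer PIRs in both NEC replicates differed in what they kept. CHD3 had 10 and 11 PIRs in the replicates of ESCs and 6 and 7 in those of NECs, yet the merged lists held 12 and 10 with 8 shared. It had 2 PIRs called in all 4 replicates, more than any other member. One, chr17:7941173-7951495, holds the start of ALOX15B, and the other, chr17:7960470-7963048, lies 173 kb downstream. The top ESC fragment next to ALOX15B, chr17:7935928-7941172, scored 21.0 in merged ESCs and 12.3 in merged NECs and was called in both ESC replicates and neither NEC replicate. A fragment holding the start of DNAH2, chr17:7610316-7624302, was called in both NEC replicates alone (12.4 and 12.4).

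CHD8 had 6 and 6 PIRs in the ESC replicates and 4 and 5 in those of NECs, but the merged lists ran the other way, with 2 in ESCs and 6 in NECs. Only 1 fragment, chr14:22024379-22026976, was called in all 4 replicates. It lay 110 kb upstream, outside protein-coding genes, and was the top PIR of both merged lists, with scores of 16.2 and 21.9. Another of the NEC PIRs held the start of SALL2, a zinc finger gene, with a score of 13.1 in the merged list and a call in no single replicate.

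CHD4 and CHD5 had replicate numbers that overlapped. The CHD4 bait, chr12:6711205-6741803, lies among many genes and had 7 and 14 PIRs in the ESC replicates and 16 and 13 in those of NECs. The merged lists held 19 and 17 with 12 shared, 7 of the PIRs in each were themselves baits, and the bait was called from 17 other baits in ESCs and 19 in NECs. The fragment holding the start of NOP2, chr12:6666582-6685049, which also covers the end of CHD4, was the top PIR of both cell types, at 20.1 and 21.0. The CHD5 bait, chr1:6220817-6245036, had 9 and 2 PIRs in the ESC replicates and 10 and 7 in those of NECs. The merged lists held 12 and 18 with 11 shared, which is 91.7% of the ESC and 61.1% of the NEC PIRs. Its top PIR, chr1:6103546-6116901, overlaps KCNAB2 123 kb downstream and scored 18.4 in ESCs and 24.7 in NECs.

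CHD6 was the only member with no PIR in the merged NEC list, and it had the fewest in both NEC replicates. Its bait, chr20:40242549-40247165, had 2 PIRs in every replicate, but the merged lists held 2 in ESCs and 0 in NECs. The 2 of ESCs were called in both ESC replicates and neither NEC replicate. One, chr20:39988617-40008657, holds the start of EMILIN3 246 kb downstream, and the other, chr20:42094534-42110430, overlaps SRSF6, a splicing factor gene, 1858 kb upstream. Both scored under 14 in the merged list.

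**Figure D5:**
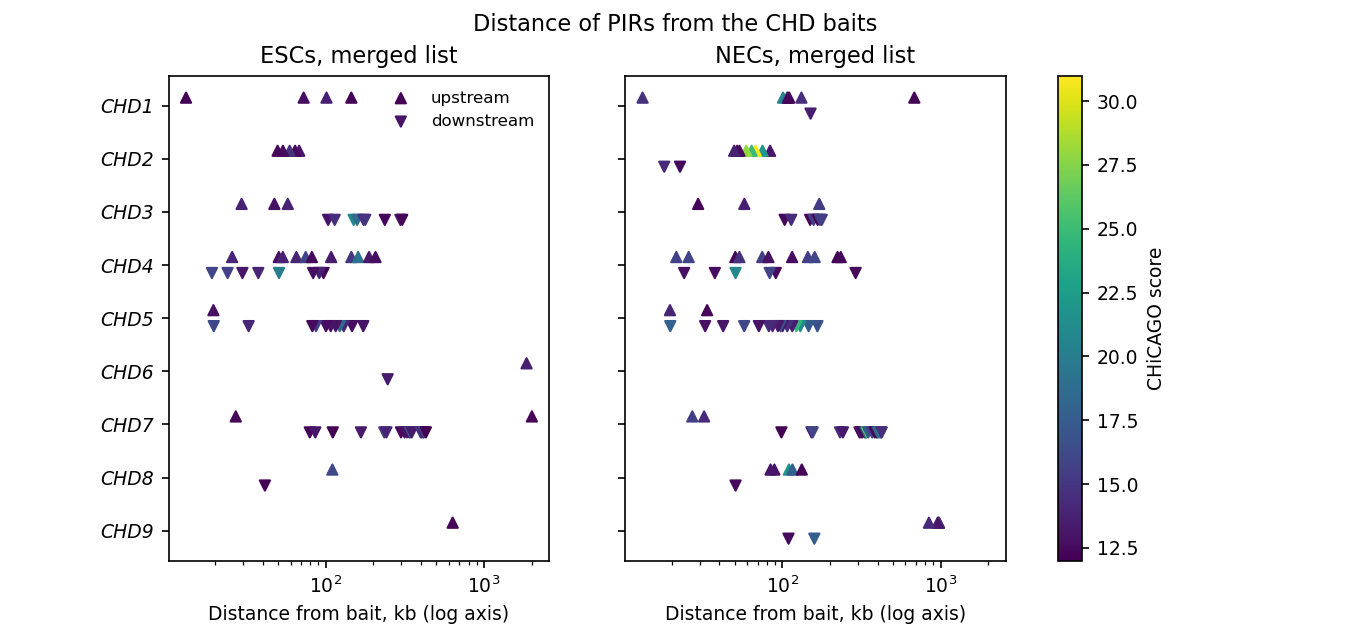
Distance of every PIR in the merged lists from its CHD bait, on a log axis in kb, with ESCs left and NECs right. Triangles point up for PIRs upstream of the gene and down for those downstream, and the colour gives the CHiCAGO score. The brightest NEC points are PIRs of the CHD2 bait, 68.0 and 59.2 kb upstream of it, at 30.7 and 27.9, and CHD6 has no point there.

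Over the family, 49 PIRs were in both merged lists, 64.5% of those of ESCs and 49.5% of those of NECs, while over all baits the shares were 44.2% and 44.3%. Of the 170 pairs called in any replicate at the CHD baits, 4 were called in all 4 replicates, 8 in both NEC replicates and neither ESC replicate, and 5 the other way, or 2.35%, 4.71% and 2.94%. Over all baits these shares were 2.85%, 2.46% and 2.56%. The members' PIRs lay at a median distance of 109 kb (ESCs) and 111 kb (NECs), and every one lay on the chromosome of its bait. In ESCs 14 of the 76 and in NECs 18 of the 99 were themselves baits. No single replicate list held 26 of the merged ESC PIRs and 32 of the merged NEC PIRs, and 13 and 27 were called in both replicates of their cell type.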

How the data were processed

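RNA-seq and PCHi-C of H9 ESCs and day 7 NECs were used, with 2 biological replicates per cell type for each assay. Conventional Hi-C was not analysed here. The deposited RNA-seq values are raw counts per gene, which the authors made by trimming the reads, mapping them to GRCh37 (TopHat2 2.0.8b in the submitters' processing notes) and counting on Ensembl genes without strand. The deposited PCHi-C lists hold a CHiCAGO score for each pair of HindIII fragments, which the authors computed per replicate and for both replicates combined, with a lowest score of 12. The lists give no reads, and the depth of a contact is unknown.

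Counts were tested with edgeR 4.0.16 in R 4.3.3 (TMM, filterByExpr with a minimum count of 10, quasi-likelihood test), which kept 17564 of 31017 genes. CPM used TMM library sizes, and SD is over 2 replicates. The SE given with edgeR's results was derived as the absolute log2 fold change divided by the square root of the test's F statistic. Calls needed a Benjamini-Hochberg adjusted p under 0.05 over all genes tested. Whether same-numbered libraries were paired is unknown, and the main test used no pairing. A bait was the fragment holding a member's gene start in the count table, and distances ran between fragment midpoints. Annotation and sequences came from the GRCh37 genome and its gene annotation. All 21833 baits began at a HindIII site. Tables were made in Python 3.11.15 with pandas 2.3.3. The expression test was checked on simulated counts.

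Members and gene lists were chosen with earlier results of these data known. Named genes were all 9 members, genes of the related lists that passed or had the largest changes, the 3 genes most like CHD3 and CHD5, genes sharing a bait or overlapping a member, and the PIRs with the highest score or called in a fixed pattern of replicates, with the genes starting in them. SALL2, CLVS1, SRSF6, RPL22 and AC025335.1 were named after their values were seen. Alternatives were DESeq2 1.42.0, other scalings, filters, the replicate block and leaving out each replicate for expression, and a higher score, single replicates, other baits, PIRs that are not baits and PIRs within 10 kb for contacts. The exon union as length was chosen after seeing the data.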

Additional observations from a re-analysis of the deposited data

How the results depend on the processing

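The calls of the 9 members were the same under DESeq2's size factors, library size scaling, DESeq2's test, both other filters and the replicate block, which gave 4 higher and 2 lower. Leaving out 1 library at a time gave 2 to 5 members higher and 1 to 2 lower, and 5 to 9 genes of the related lists higher and 7 to 14 lower, against 7 and 11 with all libraries. With all libraries kept, the other settings gave the related lists 7 to 8 higher and 10 to 14 lower. The block gave 8 and 11, library size scaling 7 and 10, and DESeq2's test 7 and 14. The log2 fold change of CHD1 ranged from -0.041 without NEC replicate 2 to 0.262 without NEC replicate 1. Same-numbered libraries deviated from their group means with r = 0.0731 over 17564 genes. With 2 libraries per group this cannot decide whether they were paired.

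Contacts moved more. At a score of 15 the summed PIRs were 16 in ESCs and 37 in NECs, with 11 shared. At that score 2 members lay above and 0 below ESCs in both replicates, with no share over all baits given. With the baits of any annotated transcript start the sums were 148 and 159, with 98 shared. Single replicate lists gave 48 to 54 PIRs in ESCs, 68 to 77 in NECs and 14 to 21 shared. Leaving out PIRs that are baits gave 62, 81 and 40, and counting PIRs within 10 kb as shared gave 66. The CHD3 numbers, 12 in ESCs and 10 in NECs, turned to 2 and 4 at a score of 15 and to 17 and 23 with all its baits. The PIR number of single members moved by more than the replicate SD in 58 of 90 comparisons. A higher score or leaving out baits can only lower a number, and adding baits can only raise it. The single replicates are also the values behind the SD. The 58 are therefore no measure of how contacts compare with expression. Why single replicates differed from the merged lists was not tested. The 2 replicates per cell type and the few PIRs per bait limit what these lists can show, and the counts of CHD5 limit its fold.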
